A study of Mus musculus with 2 samples.

Results

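The genes described here encode the core of the spliceosome and the SR and hnRNP proteins that bind its substrates. They number 42 of the 21774 protein-coding genes placed on the mouse genome: 19 core spliceosome genes, 12 SR and Tra2 genes, and 11 hnRNP genes counting Ptbp1. The list was chosen by function, with the positions of KMT2D peaks in these same data already known, so every count below is a description and carries no test. The peaks come from HT22 cells, an immortalised mouse hippocampal line, in a clone labelled wild-type and sampled at 70% confluency. Chromatin precipitated with an anti-KMT2D antibody gave 1 library and input chromatin without antibody gave 1 library. The authors deposited 1 list of 3738 peaks of the ChIP over the input. The design also names HT22 cells whose KMT2D lacks the SET methyltransferase domain, which are not analysed here. A peak list holds no RNA levels, so the labelled cell type was not checked against its markers. Neither library was replicated. The intervals given below cover the counting error of the ChIP library only. They leave out that of the input, so they are too narrow. The fold of each peak is the authors' own value and is used only within this list.

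The spliceosome removes introns from pre-mRNA. The U1 snRNP marks the 5′ splice site, SF1 and the U2 auxiliary factor mark the branch point and the 3′ splice site, and the U2 snRNP with its SF3A and SF3B subunits then takes over the branch point before the U4/U6.U5 tri-snRNP and the PRP19 complex join. SR proteins bind exonic enhancers and help recruit these factors, while hnRNP proteins coat the transcript and often act as silencers of splice sites. Many SR and hnRNP genes control their own mRNA through alternatively spliced exons that trigger its decay. KMT2D methylates lysine 4 of histone H3 and is best known at enhancers, where it works in a complex with the demethylase UTX.

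A peak was counted at a gene when its summit lay inside the gene or within 10 kb of it. Of the 42 genes, 13 had such a peak (31.0%), where 12.1% of all protein-coding genes had a summit inside or within 10 kb. By class these were 4 of 19 core spliceosome genes, 5 of 12 SR and Tra2 genes and 4 of 11 hnRNP genes. Inside the gene itself a summit lay in 7 members, against 6.72% of all protein-coding genes. These were 1 core gene (U2af2), 3 SR and Tra2 genes (Srsf1, Srsf6 and Tra2b) and 3 hnRNP genes (Hnrnpf, Hnrnpk and Hnrnpu). The core class, with 1 of 19 genes or 5.26%, was thus near the share of all genes by this measure. Within 2 kb of either end of the gene a summit was found for 9 members, 3 in each class, against 5.08% of all protein-coding genes. Start sites with a strand were at hand for 38 members, and 8 of these had a summit within 1 kb of a start, against 4.11% of protein-coding genes with a listed start. They were Sf3a2 in the core class, Srsf1, Srsf6 and Tra2b among the SR genes, and Hnrnpa2b1, Hnrnpf, Hnrnpk and Hnrnpu among the hnRNP genes. Among peaks at or above the list's median −log10 q, 5 of the 42 genes had a summit by the 10 kb rule, where 5.92% of all protein-coding genes did. The members were of ordinary size, with a median length of 14243 bp against 17219 bp for all protein-coding genes.

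**Figure D1:**
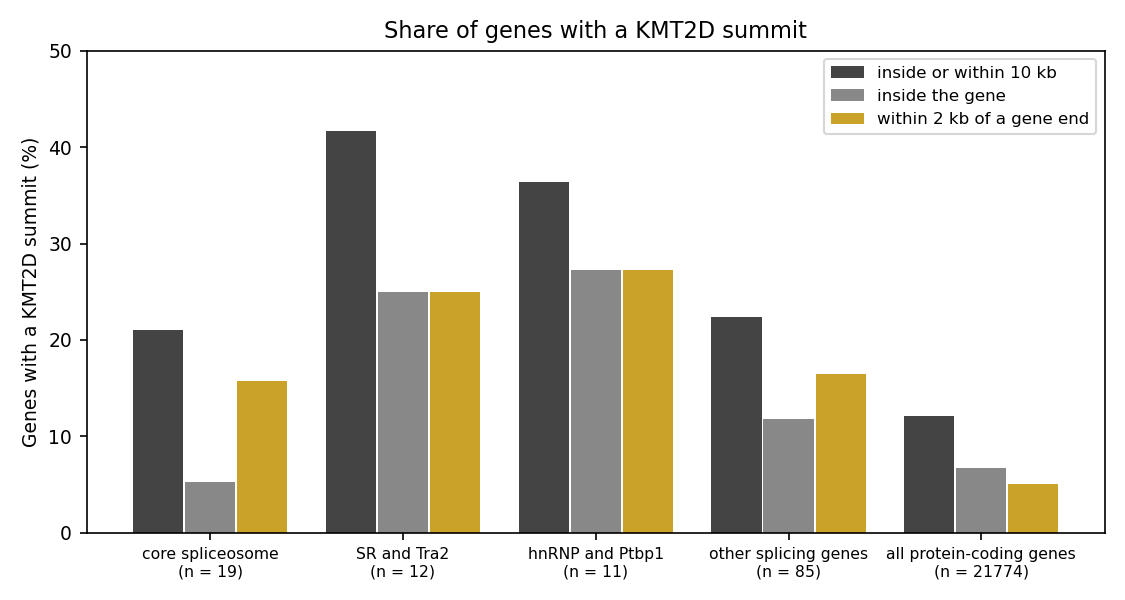
Percentage of genes (vertical axis) with a KMT2D summit inside or within 10 kb (dark), inside the gene (gray) and within 2 kb of a gene end (yellow), for the 3 classes, 85 other splicing genes and all 21774 protein-coding genes. The SR and hnRNP bars stand at 41.7% and 36.4% for the 10 kb rule, and the core bar for summits inside the gene, at 5.26%, is close to that of all genes at 6.72%.

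Among the core spliceosome genes the peak of highest fold lay in U2af2, which encodes the large subunit of the U2 auxiliary factor that binds the polypyrimidine tract. It spanned chromosome 7: 5062217 to 5062491 on mm10, with its summit 1443 bp inside the gene from its nearer end. The ChIP pileup there was 28 fragments over an input background of 4.76, a fold of 5.04 (95% Poisson interval 3.41 to 7.20). Ccdc106 was the next protein-coding gene, 1543 bp away. This was the single core gene with a summit in its own body.

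The other 3 core peaks lay outside the member, and 2 of them were nearer to a neighbouring protein-coding gene. Sf3a2 encodes a subunit of SF3A, which helps the U2 snRNP hold the branch point. Its peak, on chromosome 10 from 80798052 to 80798297, had 33 fragments over 11.7, a fold of 2.68 (1.87 to 3.74). The summit was 573 bp before the Sf3a2 start but inside Plekhj1, 464 bp after the start of that divergent gene. Sf3a3 encodes another SF3A subunit, and its peak lay 5851 bp before its start, on chromosome 4 from 124708841 to 124709340. It carried the most ChIP fragments of all the peaks at members, 61 over a background of 11.6, for a fold of 4.93 (3.79 to 6.31). The body of Fhl3, a LIM domain gene, was nearer at 399 bp, but the nearest listed start was that of Sf3a3. Sf3b3 encodes a scaffold subunit of SF3B. Its peak had 45 fragments over 8.22, a fold of 4.99 (3.67 to 6.64), on chromosome 8 from 110808558 to 110808948. That summit was 38086 bp downstream of the Sf3b3 start, 1774 bp past the far end of the gene, and inside the long non-coding RNA gene Gm15895.

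The remaining 15 core genes had no summit within 10 kb. They were U2af1, Sf1, Sf3a1, Sf3b1, Sf3b2, Sf3b4, Snrnp70, Snrpa, Snrpb, Snrpd1, Snrpd3, Snrpe, Prpf3, Prpf8 and Prpf19. They include the U1 proteins (Snrnp70 and Snrpa), the listed Sm ring proteins (Snrpb, Snrpd1, Snrpd3 and Snrpe), the tri-snRNP proteins (Prpf3 and Prpf8) and Prpf19 of the PRP19 complex. Sf3b1, the SF3B subunit that contacts the branch point, had its nearest summit at 60560 bp. The distances in this class ran from 13068 bp at Snrpd3 to 1966780 bp at Snrpd1.

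Srsf1, Srsf6 and Tra2b were the SR class members with a peak in the gene, and each of the 3 summits lay just after the listed start. Srsf1 encodes an SR protein that binds exonic enhancers and promotes use of nearby splice sites. Its peak spanned chromosome 11: 88047266 to 88047633, with 30 fragments over 9.08 and a fold of 3.08 (2.11 to 4.35), and the summit was 215 bp after the start. The annotated gene begins 874 bp before that start. Srsf6 encodes another SR protein of the same kind. Its peak was on chromosome 2 from 162931599 to 162931840, 113 bp after the start at the summit, with 21 fragments over 7.78. Its fold of 2.50 (1.59 to 3.77) was the lowest of all the peaks at members, and its −log10 q of 1.44 was close to the lowest in the whole list, 1.32. Tra2b encodes a serine- and arginine-rich activator of exon inclusion. Its peak was on chromosome 16 from 22265532 to 22265893, with 26 fragments over 7.55, a fold of 3.16 (2.10 to 4.57) and a summit 154 bp after the start. No other protein-coding gene lay within 10 kb of these 3 summits. The next ones were Vezf1 at 20611 bp, L3mbtl1 at 10712 bp and Igf2bp2 at 102552 bp, so these are the SR genes whose peak has no nearer neighbour.

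Where a peak reached into the 250 bases before a start, the sequence under it could be read from the promoter table. Starts of the members and of some neighbours were examined, not those of every gene near a peak. A peak reached in at 6 of them: the members Srsf1 and Hnrnpf and the neighbours Pnrc2, Triap1, Rmi1 and Cbx3. Their windows are shown because they hold the promoter bases that the peaks cover. Each is given 5′ to 3′ on the strand of its gene and ends at the base before the start, with the bases inside the peak in capitals (RefSeq, GRCm38.p6, the build of mm10). The Srsf1 window is chr11:88047123-88047372 on the plus strand, and the peak covered 107 of its 250 bases. At Srsf6 and Tra2b the peak began after the start and covered no base of the window.
Srsf1: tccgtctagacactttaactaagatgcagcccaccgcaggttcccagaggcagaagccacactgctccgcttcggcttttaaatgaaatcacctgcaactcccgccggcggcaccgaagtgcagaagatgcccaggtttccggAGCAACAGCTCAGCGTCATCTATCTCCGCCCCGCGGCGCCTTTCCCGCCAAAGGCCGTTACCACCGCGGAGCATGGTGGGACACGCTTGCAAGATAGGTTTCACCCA

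The other 2 SR peaks sat at the starts of neighbouring genes. The peak counted at Srsf10, which encodes an SR protein that represses splicing when dephosphorylated, had the highest fold at any member, 5.43 (3.95 to 7.30), from 42 fragments over 6.92. It lay 3998 bp past the end of Srsf10, on chromosome 4 from 135873702 to 135874044, and its summit was 60 bp before the start of Pnrc2, a nuclear receptor coactivator gene transcribed towards Srsf10. The peak counted at Srsf9 was on chromosome 5 from 115340990 to 115341475, 7398 bp past the end of the gene. It had 26 fragments over 9.51, a fold of 2.57 (1.71 to 3.72), and its summit was 10 bp after the start of Triap1, a small gene of the p53 response. The body of Gatc came within 80 bp of the same summit. The fold intervals of Srsf10 and Srsf9 did not overlap. The Pnrc2 window is chr4:135873847-135874096 on the minus strand, with 198 of 250 bases in the peak, and the Triap1 window is chr5:115340981-115341230 on the plus strand, with 241 in the peak.
Pnrc2: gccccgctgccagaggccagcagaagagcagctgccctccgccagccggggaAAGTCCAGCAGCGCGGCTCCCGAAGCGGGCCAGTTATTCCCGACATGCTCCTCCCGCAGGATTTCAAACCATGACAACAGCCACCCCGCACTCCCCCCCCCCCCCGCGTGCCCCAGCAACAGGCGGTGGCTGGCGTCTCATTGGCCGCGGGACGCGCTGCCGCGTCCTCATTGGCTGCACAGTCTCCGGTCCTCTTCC
Triap1: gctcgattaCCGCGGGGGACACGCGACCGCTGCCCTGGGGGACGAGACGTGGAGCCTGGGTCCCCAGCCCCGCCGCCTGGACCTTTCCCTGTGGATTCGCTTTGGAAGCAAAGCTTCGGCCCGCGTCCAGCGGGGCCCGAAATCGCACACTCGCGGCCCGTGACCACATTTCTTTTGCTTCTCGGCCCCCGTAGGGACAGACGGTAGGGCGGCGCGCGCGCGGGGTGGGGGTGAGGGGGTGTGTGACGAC

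The 7 SR class genes without a summit within 10 kb were Srsf2, Srsf3, Srsf4, Srsf5, Srsf7, Srsf11 and Tra2a. Their nearest summits were 32997 bp (Srsf2) to 565600 bp (Srsf5) away. Tra2a, the paralogue of Tra2b, had its nearest at 146707 bp.

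The hnRNP class had 5 peaks at 4 genes, and Hnrnpu alone had 2. Hnrnpu encodes a large RNA- and chromatin-binding protein of the nuclear matrix. Its peak inside the gene was the widest at any member, 760 bp on chromosome 1 from 178336482 to 178337241, with 25 fragments over 6.93 and a fold of 3.28 (2.17 to 4.78). That summit lay 616 bp after the start. The other peak, from 178318426 to 178318811, was 18686 bp away at its summit and 2595 bp past the far end of Hnrnpu. It had 27 fragments over 6.41, a fold of 3.78 (2.54 to 5.44). Its summit lay inside Cox20, a gene for a cytochrome c oxidase assembly factor, but 640 bp before the nearest listed Cox20 start. The intervals of the 2 peaks overlapped for most of their length.

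Hnrnpk encodes a poly(C)-binding hnRNP. Its peak on chromosome 13 from 58402479 to 58402919 had 37 fragments over 8.65, a fold of 3.94 (2.80 to 5.39). The summit lay inside the bodies of both Hnrnpk and Rmi1, a divergent gene for a subunit of the BLM dissolvasome, which overlap there. It was 543 bp before the listed Hnrnpk start and 63 bp after that of Rmi1. Hnrnpa2b1 and Cbx3, which encodes heterochromatin protein HP1 gamma, form a second divergent pair. The peak there, on chromosome 6 from 51470509 to 51470745, had 38 fragments over 13.0, the highest background at any member, and a fold of 2.79 (1.996 to 3.80). Its summit was 809 bp before the nearer Hnrnpa2b1 start and 87 bp after that of Cbx3, inside Cbx3. The Rmi1 window is chr13:58402347-58402596 and the Cbx3 window chr6:51470366-51470615, both on the plus strand, with 118 and 107 of 250 bases in the peak.
Rmi1: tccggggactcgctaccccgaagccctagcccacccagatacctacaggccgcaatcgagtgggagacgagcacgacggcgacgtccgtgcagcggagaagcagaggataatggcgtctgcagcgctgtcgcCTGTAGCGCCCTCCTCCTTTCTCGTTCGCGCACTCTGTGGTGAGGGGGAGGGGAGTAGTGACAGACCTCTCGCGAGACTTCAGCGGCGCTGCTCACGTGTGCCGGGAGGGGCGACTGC
Cbx3: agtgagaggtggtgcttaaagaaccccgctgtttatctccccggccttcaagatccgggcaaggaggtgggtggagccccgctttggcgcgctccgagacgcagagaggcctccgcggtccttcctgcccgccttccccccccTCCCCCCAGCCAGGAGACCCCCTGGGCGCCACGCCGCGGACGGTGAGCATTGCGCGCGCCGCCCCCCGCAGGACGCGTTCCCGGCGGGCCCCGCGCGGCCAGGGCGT

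Hnrnpf encodes an hnRNP that binds G-rich sequence. It has 4 listed starts, and its peak was at the last of them rather than the first. The peak spanned chromosome 6: 117917045 to 117917370, with 26 fragments over 9.08 and a fold of 2.68 (1.78 to 3.88). The summit lay 147 bp before the last start and 16807 bp after the first. The window of that last start is chr6:117917044-117917293 on the plus strand, and the peak covered 249 of its 250 bases.
Hnrnpf: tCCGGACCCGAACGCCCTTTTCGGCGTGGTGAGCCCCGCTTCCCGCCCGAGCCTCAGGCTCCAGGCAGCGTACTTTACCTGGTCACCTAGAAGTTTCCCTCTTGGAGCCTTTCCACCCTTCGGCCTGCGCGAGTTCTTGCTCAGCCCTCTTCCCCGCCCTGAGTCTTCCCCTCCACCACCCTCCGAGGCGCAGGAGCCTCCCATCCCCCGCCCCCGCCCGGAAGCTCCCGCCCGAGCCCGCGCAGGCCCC

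The 7 hnRNP class genes without a summit within 10 kb were Hnrnpa1, Hnrnpc, Hnrnpd, Hnrnph1, Hnrnpl, Hnrnpm and Ptbp1. Ptbp1, the polypyrimidine tract binding protein that represses neuronal exons, had its nearest summit at 44821 bp. The nearest and farthest of the 7 were Hnrnpa1 at 24926 bp, where the summit lay inside Cbx5, and Hnrnpd at 625118 bp.

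**Figure D2:**
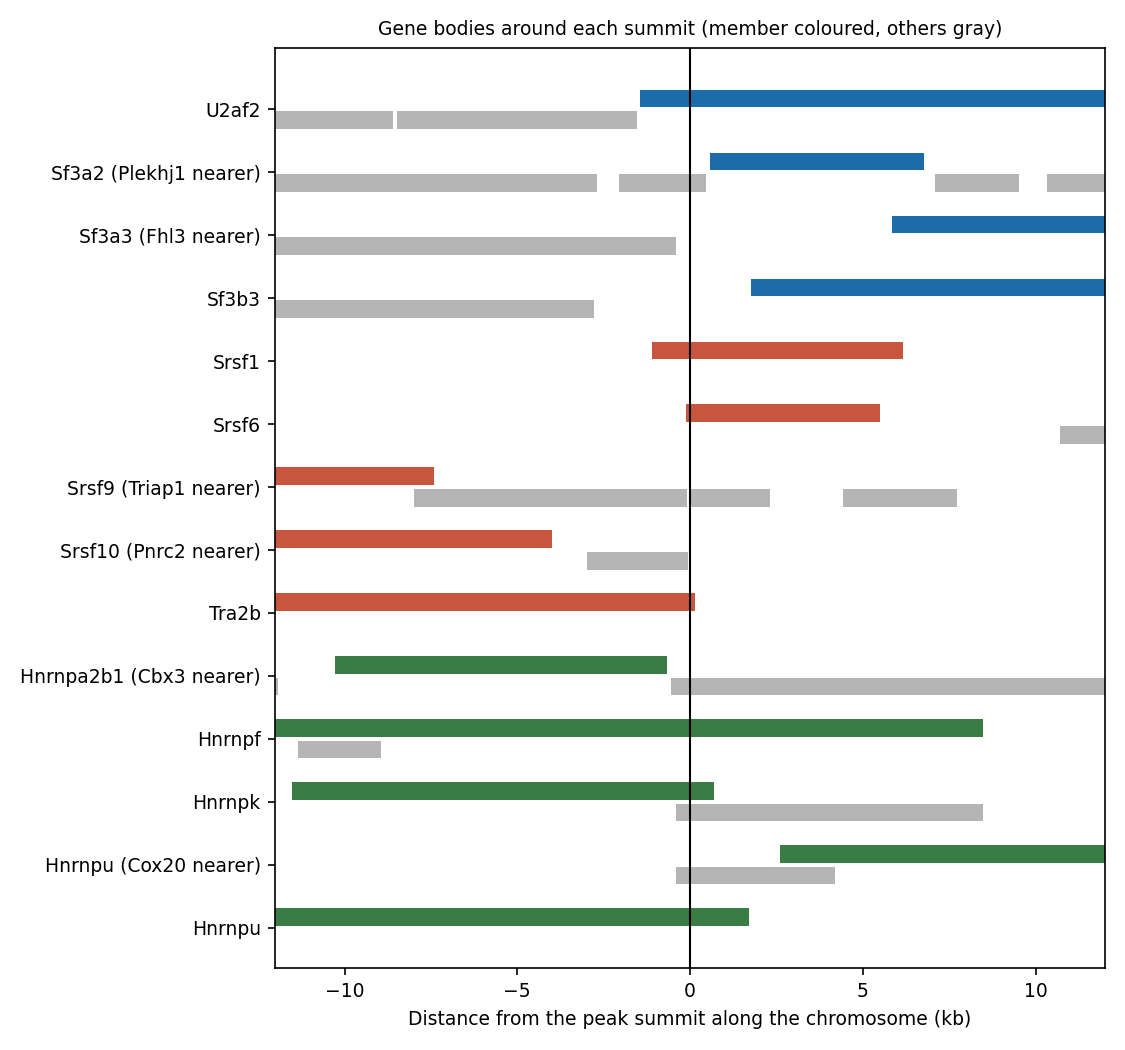
Gene bodies around the 14 summits, with distance from the summit in kb along the chromosome on the horizontal axis and the summit as the vertical line at 0; the member is coloured by class and other protein-coding genes are gray. In 7 rows the coloured bar crosses the line, and in the rows naming a nearer gene the gray bar reaches or comes closer to it.

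Of the 14 peaks, 6 were nearer to the body of another protein-coding gene than to the member (Plekhj1, Fhl3, Triap1, Pnrc2, Cbx3 and Cox20), and 1 lay inside 2 genes at the same time (Hnrnpk and Rmi1). Counting only peaks with no nearer protein-coding gene left 8 of the 13 members: U2af2, Sf3b3, Srsf1, Srsf6, Tra2b, Hnrnpf, Hnrnpk and Hnrnpu. Counting only those with no nearer gene of any kind left 7, since the Sf3b3 peak lay in Gm15895. The share of all protein-coding genes under these nearest-gene rules was not computed. Whether these counts exceed that share is therefore not known. At members with a listed start there were 13 peaks, and the nearest listed start belonged to the member for 6 of them and to another gene for 7. None of the 14 peaks was shared by 2 members, and none lay within 500 bp of a small RNA gene. Most of the list was alike in this, with 3545 of 3706 peaks farther than that from one.

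These 6 promoter windows (Srsf1, Hnrnpf, Cbx3, Rmi1, Pnrc2 and Triap1) are rich in G and C, with GC contents over the full windows (250 bases before to 50 after the start) of 58.3% at Srsf1, 71.3% at Hnrnpf, 75.3% at Cbx3, 65.7% at Rmi1, 67.7% at Pnrc2 and 68.3% at Triap1. Motifs were searched on either strand over the same full windows. The SP/KLF motif GGGCGG was found at Srsf1, Hnrnpf, Cbx3 and Triap1, and the NFY motif CCAAT at Srsf1, Rmi1 and Pnrc2. At Srsf1 and Rmi1 the CCAAT match is not within the 250 bases printed above and takes in bases after the start. Rmi1 also held the E-box CACGTG.

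The promoter windows of the members were CpG-rich as a group. Over 54 full windows at 38 members the median GC content was 61.0%, against 56.3% over 21263 windows of protein-coding genes. The median number of CpG dinucleotides was 25, against 13. The 16 windows of members with a peak inside or within 10 kb had a median of 32.5 CpG and the 38 windows of the others 24.5. Those 16 are all listed starts of these members. A peak covered window bases only at Srsf1 and the last Hnrnpf start, so the 16 do not stand for promoters under a peak. GGGCGG was present in 66.7% of member windows against 46.2% of protein-coding ones. By class it was in 9 of 20 core windows, close to the share of protein-coding windows, in 14 of 15 SR class windows and in 13 of 19 hnRNP class windows. The ETS motif CCGGAAGT was in 20.4% against 5.15%, CCAAT in 27 of 54 against 38.2%, the NRF1 core CGCATGCG in 11.1% against 2.52% and CACGTG in 14.8% against 7.84%. The cAMP response element TGACGTCA (3.70% against 2.23%), the YY1 motif AAGATGGC (3.70% against 3.05%), the AP-1 motif TGANTCA (1.85% against 6.99%) and TATAAA (9.26% against 12.6%) complete the 9 motifs searched, all on both strands; none of them contains another. ETS motifs were in 2 of the 16 windows of members with a peak and in 9 of the 38 others, and the NRF1 core in 0 and 6. Windows of alternative starts of 1 gene can overlap, so they are not independent, and a match describes letters, not a binding site.

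In strength the peaks at these genes were ordinary to weak for the list. Their median fold was 3.22, with a range of 2.50 to 5.43, while all 3706 peaks on chromosomes 1 to 19, X and Y had a median of 4.47. Of the 14, 10 were below that median and 0 reached the 75th percentile of 5.77. The ChIP pileups were close to those of the list, with a median of 29 fragments (21 to 61) against 30. The backgrounds were higher: 13 of 14 lay above the list's median of 6.05, and their own median was 8.43 (4.76 to 13.0). U2af2 was the exception, at 4.76. Peaks within 2 kb of any protein-coding gene end showed the same lean, with a median fold of 3.72 and a median background of 7.35 over 1006 peaks. The 9 such peaks at members had medians of 3.16 and 8.22. By class the median folds were 4.96 for the 4 core peaks, 3.08 for the 5 SR peaks and 3.28 for the 5 hnRNP peaks.

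**Figure D3:**
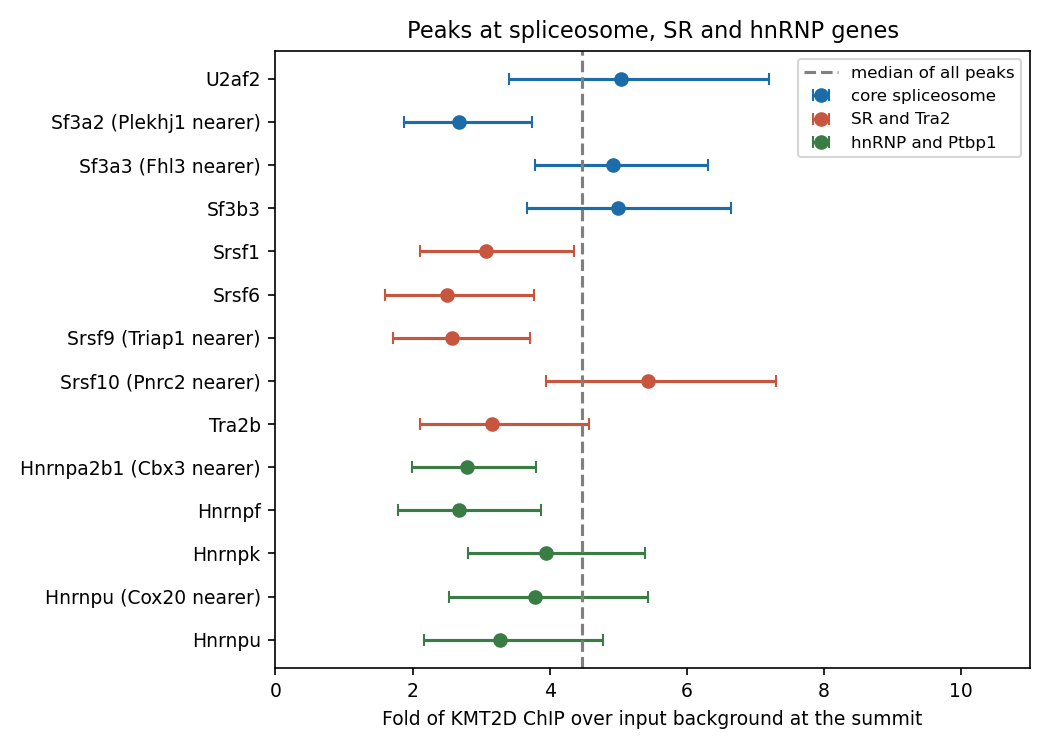
Fold of KMT2D ChIP over input background (horizontal axis) for the 14 peaks at members, as points with exact 95% Poisson intervals, coloured by class; the dashed line is the median of all peaks, 4.47. U2af2, Sf3a3, Sf3b3 and Srsf10 are to the right of the line, between 4.93 and 5.43, and the other 10 peaks are to its left.

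The peaks above the list's median fold were those of Srsf10, U2af2, Sf3b3 and Sf3a3, and their intervals overlapped each other. The lowest, Srsf6, overlapped in its interval with every peak but Srsf10 and Sf3a3. Of the peaks with a summit in the member, U2af2 at 5.04 had the highest fold, followed by Hnrnpk at 3.94 and Hnrnpu at 3.28, and these 3 intervals overlapped as well. Within the counting error of the ChIP alone, most of the order among the members is therefore not resolved. Error of the input would widen these intervals.

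**Figure D4:**
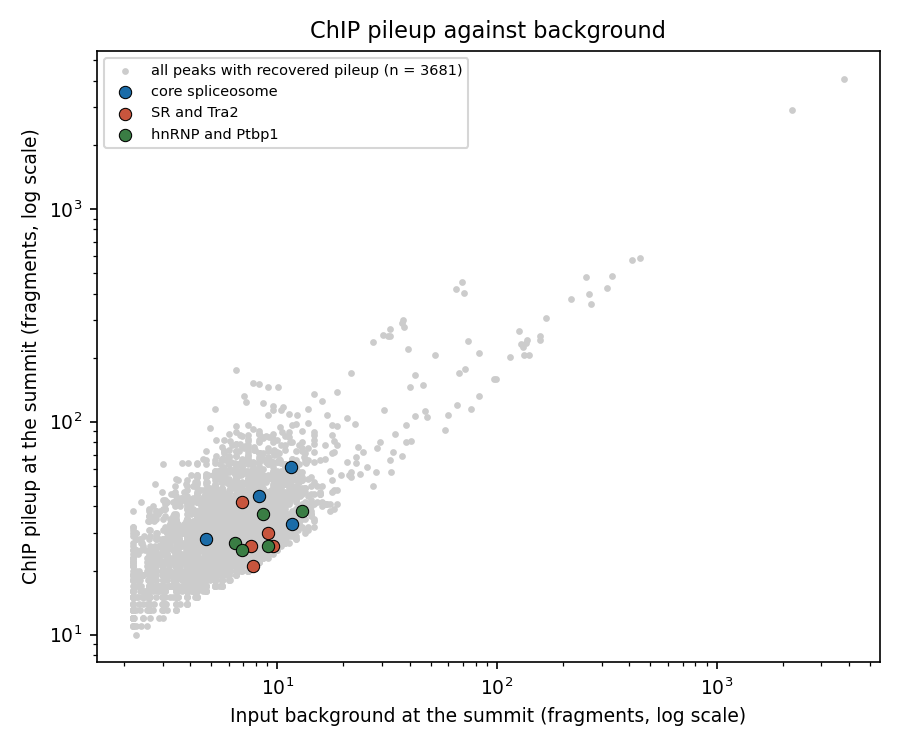
ChIP pileup at the summit (vertical axis, fragments, log scale) against the input background (horizontal axis, fragments, log scale) for the 3681 peaks on chromosomes 1 to 19, X and Y with a recovered pileup (light gray) and the 14 peaks at members (coloured by class). The members sit at 21 to 61 ChIP fragments and, apart from U2af2 at 4.76, at backgrounds of 6.41 to 13.0.

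The 29 members without a peak are not shown to lack KMT2D. The member peaks had backgrounds of 4.76 to 13.0. In that range the lowest pileup called in the whole list was 16 fragments and the lowest fold 2.21. These lows were taken separately and do not set a single limit for the range. At a background of 7.78, Srsf6 with 21 fragments had a −log10 q of 1.44, where the lowest in the list was 1.32. Signal too weak to be called at its own background was not detectable at this depth. The nearest summits of the 29 members were at a median distance of 81703 bp. The member just inside the 10 kb limit was Srsf9 at 7398 bp, and the member just outside was Snrpd3 at 13068 bp, where the summit had a fold of 6.88 and lay 1840 bp from Gucd1. After Snrpd3 came Prpf8 at 23646 bp. Gene length was alike in the members with and without a peak, with medians of 14157 and 14329 bp.

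**Figure D5:**
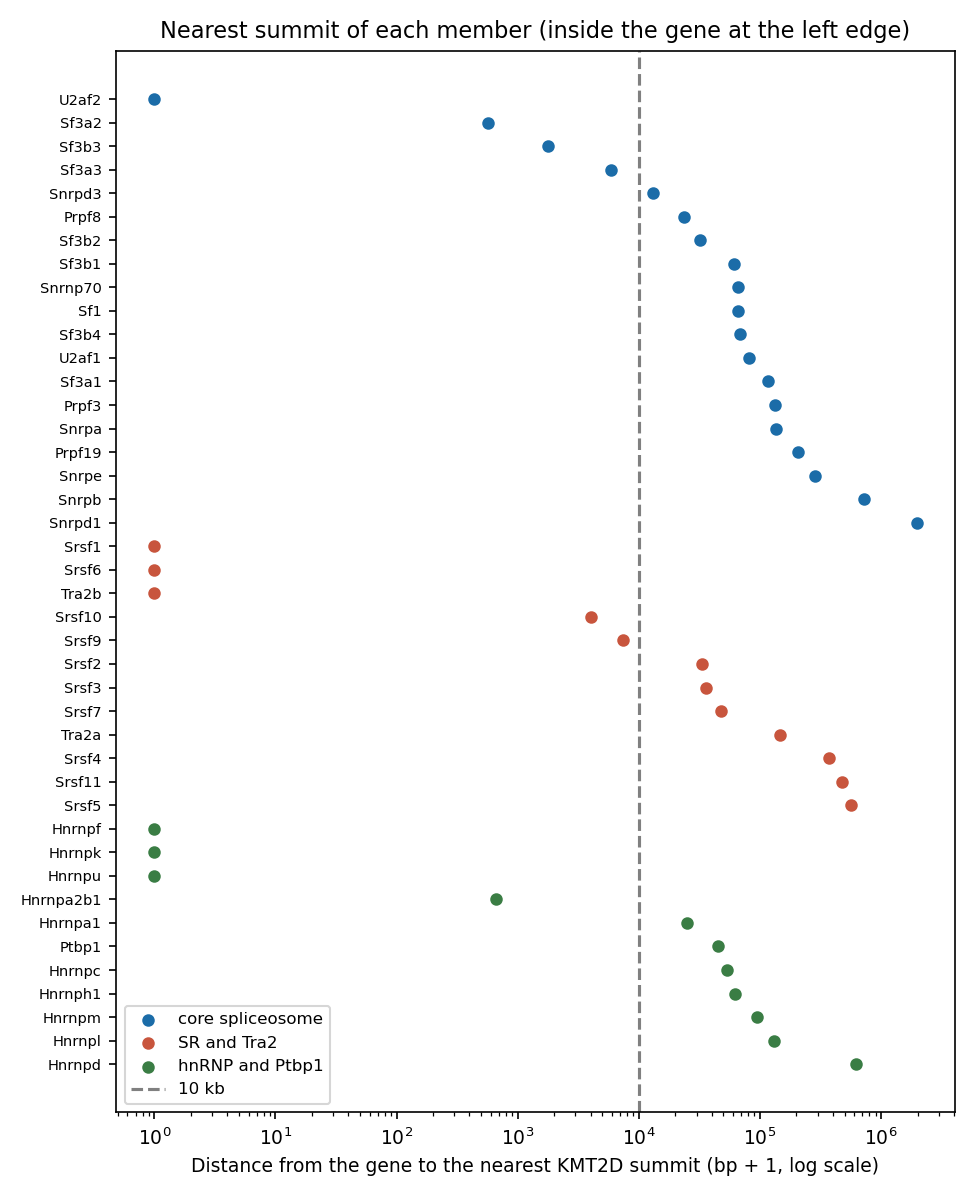
Distance from each of the 42 genes to its nearest KMT2D summit (horizontal axis, bp + 1, log scale), ordered within class, with the 10 kb limit as a dashed line. The 7 genes with a summit inside are at the left edge, 6 more lie left of the line, and the other 29 run from 13068 bp (Snrpd3) to 1966780 bp (Snrpd1).

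A list of 85 further splicing genes that are not members was counted in the same way. In all, 19 of 85 had a summit inside or within 10 kb, against 12.1% of all protein-coding genes. Within 2 kb of an end it was 14 of 85, against 5.08% of all protein-coding genes. Among hnRNP-related and other RNA-binding regulators it was 13 of 28 within 10 kb and 11 of 28 at an end. Other U1 and U2 proteins had 3 of 19 within 10 kb, and late-acting factors with the exon junction complex 3 of 11. The tri-snRNP and PRP19 complex proteins had 0 of 16, which allows a share of up to 18.8%, and the SR-related proteins and SR kinases 0 of 11, which allows up to 27.3%. Both limits take 3 genes as the upper bound of a count of 0. They treat the genes as independent draws, although the list was chosen. The share of all protein-coding genes, 12.1%, lies under both limits, so a deficit was not detectable. Among the gene-end peaks of highest fold in this list were those at the hnRNP genes Raly (5.09) and Syncrip (4.66), at Khdrbs1 (4.18), which encodes SAM68, and at Taf15 (4.09), which encodes an RNA-binding protein. Whether these classes differ from each other was not tested.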

How the data were processed

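KMT2D ChIP and input chromatin of HT22 cells were sequenced, 1 library each. The submitters' processing notes name Bowtie2, Picard, MACS2 and build mm10. Versions, settings and the peak threshold are not stated there. The authors deposited 1 list with, per peak, a fold (ratio) of ChIP over background and a −log10 p-value and q-value. The deposited score was not used. From the deposited fold and p-value, the ChIP pileup n and background b were solved, taking the fold as (n + 1)/(b + 1) and p as a Poisson upper tail, which matched the deposited −log10 p within 0.001 for 3687 of 3738 peaks (98.6%) and for all 14 peaks at members. Fold intervals are exact Poisson intervals (95%) of n with b fixed. They cover the counting error of the ChIP pileup only, not that of the input. Fragments may include duplicates. Depth is known only through these pileups.

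Gene positions came from a RefSeq table of GRCm38.p6 (49595 of 49997 genes kept, those on main chromosome sequences; all 42 members and 85 other genes matched). Starts, strands and sequences came from a RefSeq promoter table of the same build, with 54 starts for 38 members. The strand-based counts within 1 kb of a start were added after the data were seen. All members are named, with every peak, and the 5 gene-end peaks of highest fold among the other genes, of which 1 is not reported here. The members and lists were chosen with earlier results of these data known. On simulated data the pileup was recovered for 100.0% of 1990 peaks, and 200 of 200 genes planted with a summit within 10 kb were found. The simulation used the same formula and the same window, so it checks the code and not whether the deposited values follow that formula. Analyses used Python 3.11.15, NumPy 2.4.6, SciPy 1.17.1 and pandas 2.3.3. Alternatives were other windows, stricter peaks, the whole peak interval, nearest-gene rules and peaks left out.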

Additional observations from a re-analysis of the deposited data

How the results depend on the processing

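A summit inside or within 10 kb was found at 13 members (4 core, 5 SR, 4 hnRNP). Of these, 7 remained when the summit had to lie inside the gene (core 1, SR 3). A 5 kb window left 11 members and a 2 kb window left 10, of which 3 were SR genes. With no nearer protein-coding gene 8 members remained (core 2, SR 3), and with no nearer gene of any type 7 (core 1, SR 3). The share of all protein-coding genes under these nearest-gene rules was not computed. The upper part of the list, from the median −log10 q up, gave 5 members (SR 1, hnRNP 1), and peaks from the 75th percentile of fold up gave 0 in every class, where 3.03% of all protein-coding genes had a summit. Of 9 members with a summit within 2 kb of an end, 5 had one within 1 kb of an end (core 1). The share of all protein-coding genes for that 1 kb window was not computed. From the median −log10 q up, 3 members had one within 2 kb (SR 0, hnRNP 1), against 1.73% of all protein-coding genes. From the 75th percentile of fold up, 0 had one, against 0.638% of all protein-coding genes. Core fell from 3 to 1 with no nearer gene of any type. The share of all protein-coding genes with a summit moved from 12.1% to 10.1% with a 5 kb and 8.82% with a 2 kb window. In all, 49 of 78 alternatives stayed within 1.5 times the count or within the interval of the value. They include the member totals at 5 kb and 2 kb and the whole peak interval. The lists without small RNA peaks or without peaks of over 20 background fragments are also among them. Stricter thresholds leave fewer peaks, and whether weaker peaks would recur in a second library could not be examined with 1 library. No paired analysis was possible because there was 1 library of each kind.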

Other observations

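The highest folds within 10 kb of the other splicing genes were at neighbours rather than at these genes, and these genes were picked out after seeing the folds. The peak 5646 bp from Luc7l3, which encodes a U1-associated protein, had a fold of 10.7 and lay 26 bp from Ankrd40. The peak 9243 bp from Hnrnpul1 had a fold of 7.82 and lay inside Ccdc97. Phf5a, which encodes a small SF3B subunit, had 2 peaks, of fold 6.49 at 4439 bp and 4.39 at 6154 bp, and Tob2 was nearer to both, at 1751 and 36 bp.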
